A study of Gallus gallus with 32 samples.

Results

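The anterior pituitary of 7-week-old chickens of a Fat line was compared with that of same-aged chickens of a Lean line. The comparison rests on 6 of the 32 arrays of the study, namely the 3 arrays labelled fat week 7 replicates 1, 3 and 4 and the 3 arrays labelled lean week 7 replicates 1, 3 and 4. Per the labels, both lines come from divergent selection on the weight of abdominal fat, the birds were raised as standard broilers, and each array holds amplified RNA of an individual pituitary sample. The labels name no sex, feeding state or hour of sampling, and print one genotype code for both lines. The replicates are called biological, but nothing names the birds. A p-value here therefore sets a difference against the spread between samples, not between known birds. That spread is pooled over the arrays of week 7 and of the earlier ages. The other arrays used for the shared error estimate are 24 arrays of the same lines at weeks 1, 3 and 5, with 4 arrays for each line and age.

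Every array was a Del-Mar 14K array, a glass slide spotted with chicken cDNAs. The sample was labelled with the dye Cy3 and hybridised together with a Cy5-labelled pool of all 32 RNAs. Values are therefore given as log2 of Cy3 over Cy5, sample against pool, and each difference is the fat mean minus the lean mean of such ratios. A positive difference means a higher level in fat birds. After filtering, 14705 probes were tested, of which 8845 carry a gene symbol, for 5742 genes. A gene is represented by its brightest probe unless another probe is named.

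The anterior pituitary holds separate endocrine cell types, each defined by its hormone. Gonadotropes make follicle-stimulating hormone and luteinising hormone, thyrotropes make thyrotropin, and both share the alpha chain CGA. Somatotropes make growth hormone, lactotropes make prolactin, and corticotropes cut their hormones from the precursor POMC. Thyroid hormone, growth hormone and the corticotropic axis all act on fat storage in growing birds, while follicle-stimulating hormone drives the growth of the gonads.

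Replicate 2 is absent from both lines because its fat and lean files hold one scan. Area and quality score were both identical for 54.4% of the spots of these files, and the next highest share among pairs of arrays was 1.98%. Usable spots numbered 14008 to 16134 per array over the 30 arrays used, and Cy3 exceeded the local background by a median factor of 3.68 to 9.02. On the array of fat replicate 4 the ratios sloped across the slide, with a Spearman correlation between ratio and slide row of 0.64 after a loess curve over the whole array. A loess curve within each of the 48 grid blocks brought this to 0.005, and that normalisation was used throughout.

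The array of lean replicate 3 stood apart from the others in spread. The standard deviation of its log2 ratios over the tested probes was 0.671, against 0.219 to 0.408 on the other 29 arrays. Regressed on the mean of lean replicates 1 and 4 across 14160 probes, its ratios had a slope of 1.59 and a correlation of 0.69, so they ran the same way but wider. Of the 13911 probes measured on all 6 arrays, lean replicate 3 was the array farthest from its own group mean for 49%, against 8.31% to 12.3% for each of the other 5 arrays. Its median Cy3 signal was 4.55 times background, against 5.63 to 9.01 times on those 5. The part of this array in the results was measured by leaving it out, and the value without it is given beside most of them. By correlation across probes, fat replicate 1 was the least similar array, at 0.314 to 0.472 with the other 5. Lean replicate 3 correlated at 0.609 and 0.637 with lean replicates 1 and 4. The arrays did not group by line, as fat replicate 3 correlated at 0.659 with fat replicate 4 and at 0.619 to 0.677 with the lean arrays.

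**Figure D1:**
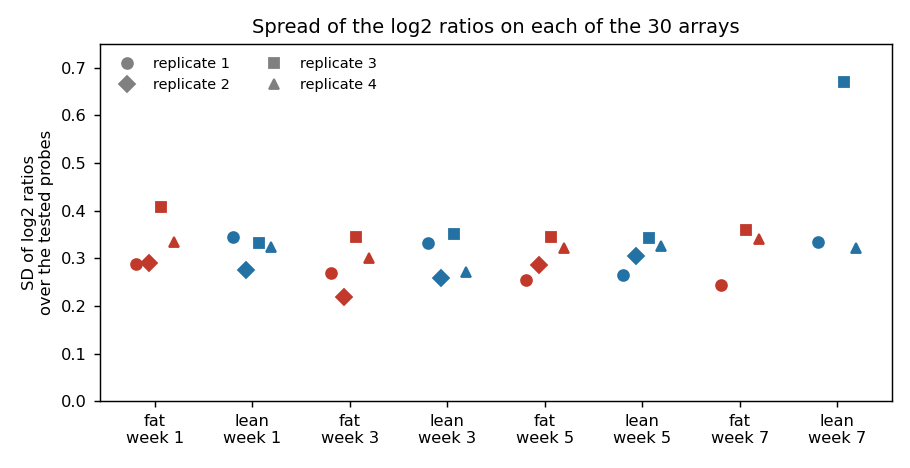
Standard deviation of the log2 ratios (sample over pool) over the tested probes, on the vertical axis, for each of the 30 arrays used, with a column for each line and age and a marker shape for each replicate number. Lean replicate 3 of week 7 lies at 0.671 and every other array between 0.219 and 0.408.

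The first question was which transcripts differ between fat and lean birds at week 7. No probe passed an adjusted p of 0.05 in limma's moderated test, which is 0% of the 14705 tested, and the smallest adjusted p was 0.113. At an unadjusted p under 0.05 there were 2482 probes, or 16.9% of those tested, with 1249 higher (8.49%) and 1233 lower (8.38%) in fat birds. The same threshold gave 672 probes at week 1, 542 at week 3 and 695 at week 5, or 4.57%, 3.69% and 4.73%. Without lean replicate 3 the week 7 count was 730, or 4.96%, and still no probe passed the adjusted threshold. Leaving out lean replicate 1 or lean replicate 4 instead let 337 and 204 probes pass.

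Of the 13911 probes measured on all 6 arrays, 1823 had fat arrays that did not overlap the lean arrays, which is 13.1%. All 3 fat arrays lay above all 3 lean arrays for 835 probes (6.0%) and below them for 988 probes (7.10%). Taken as 1 probe per gene, this was so for 343 genes above (6.24%) and 383 genes below (6.96%) of 5501. At 1 probe per gene, 531 genes were higher (9.25%) and 470 lower (8.19%) at an unadjusted p under 0.05. Of these 1001 genes, 139 stayed under it when each of the 6 arrays was left out in turn, with 48 of them higher and 91 lower in fat birds. Since nothing passed the adjusted threshold, the genes below are given as values and not as calls.

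Among the hormones, the beta chain of follicle-stimulating hormone, FSHB, showed the widest separation. Its log2 ratios were 0.50, 1.60 and 0.53 in fat birds, against -1.39, 0.03 and -1.59 in lean birds (replicates 1, 3 and 4 in each). The lowest fat value lay above the highest lean value, which belonged to lean replicate 3, so the array with the widest spread was here the one nearest to the fat birds. FSHB averaged 0.88 ± 0.63 in fat birds and -0.98 ± 0.88 in lean birds (SD, n = 3 each). The difference was 1.86 (SE 0.57, 95% interval 0.69 to 3.03), or 3.64-fold, with an unadjusted p of 0.00298 and an adjusted p of 0.156 in limma's test. Without lean replicate 3 it was 2.37 (unadjusted p = 0.000697), and over the 27 alternative settings it stayed between 1.40 and 2.54, each with an unadjusted p under 0.05 and with adjusted p-values between 0.025 and 0.997.

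At the earlier ages the FSHB difference was -0.31 at week 1, -0.38 at week 3 and 0.11 at week 5, each with a 95% interval that spans 0. The week 7 difference exceeded the mean of these by 2.06 (SE 0.64), with an unadjusted p of 0.00329 and an adjusted p of 0.358 in limma's test of the difference. In bulk tissue, more cells of a type and more RNA per cell cannot be told apart. Other gonadotrope genes measured included NR5A1, a nuclear receptor of these cells, and CGA. NR5A1 differed by -0.28 (unadjusted p = 0.0821), and by -0.04 without lean replicate 3, while a second NR5A1 probe differed by -0.25, and by -0.52 (unadjusted p = 0.0911) without that array. LHB, the beta chain of luteinising hormone, was not measured here.

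TSHB, the beta chain of thyrotropin, lay the other way. Its log2 ratios were -0.11, 0.35 and -0.10 in fat birds, against 1.13, 1.21 and 0.43 in lean birds. The groups did not overlap, though fat replicate 3 and lean replicate 4 were close. TSHB averaged 0.04 ± 0.26 in fat birds and 0.92 ± 0.43 in lean birds (SD, n = 3 each). The difference was -0.87 (SE 0.39, 95% interval -1.68 to -0.07), with an unadjusted p of 0.0337 and an adjusted p of 0.269 in limma's test. Without lean replicate 3 it was -0.73 (unadjusted p = 0.111), and scaled between arrays it was -0.56 (unadjusted p = 0.24). At weeks 1, 3 and 5 the TSHB difference was -0.24, 0.12 and -0.62.

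The remaining hormone probes had overlapping lines. Prolactin, PRL, had log2 ratios of -0.29, 0.01 and -0.99 in fat birds, against 0.08, 0.66 and -0.50 in lean birds, a difference of -0.50 (95% interval -1.09 to 0.09). The PRL difference was -0.21 without lean replicate 3 and -0.22 without fat replicate 4. POMC ranged from -0.39 to -0.06 in fat birds and from -0.59 to -0.18 in lean birds, and its difference of 0.09 had an interval of -0.18 to 0.36. That interval is the narrowest of the 6 hormone probes. A second POMC probe differed by 0.20 with overlap, or by 0.07 without lean replicate 3. Growth hormone, GH, differed by 0.17 (interval -0.67 to 1.00), from 3 fat arrays and lean replicates 1 and 4 alone, with 1 array saturated. A second GH probe differed by -0.11 (interval -0.48 to 0.25), from 3 fat arrays and lean replicates 1 and 3. CGA, the alpha chain shared by the gonadotropins and thyrotropin, differed by 0.07 (interval -0.63 to 0.77), or 0.21 without lean replicate 3, with ratios of 0.40, -0.79 and -0.50 in fat birds and 0.12, -0.08 and -1.13 in lean birds. Leaving out a single array turned the sign of POMC, GH and CGA, and leaving out lean replicate 3 and fat replicate 4 together turned that of PRL.

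**Figure D2:**
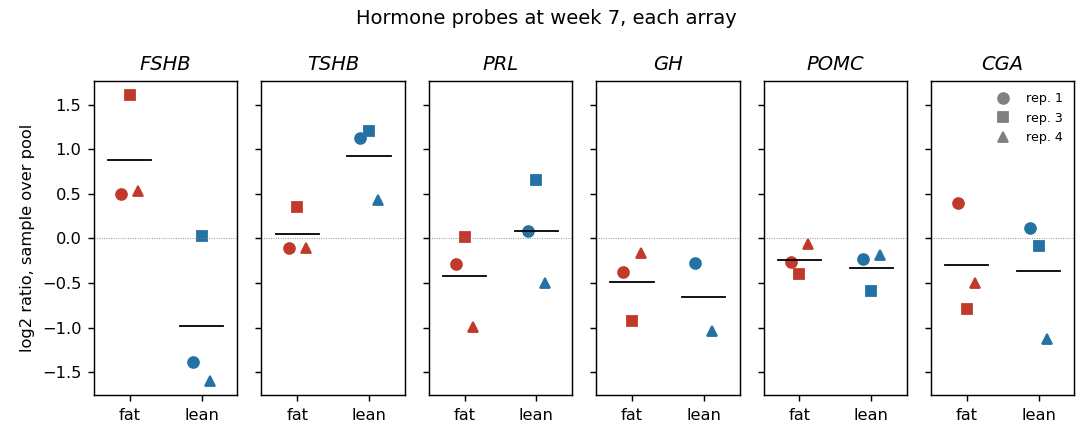
Log2 ratio of sample over pool, on the vertical axis, for the 6 hormone probes on each fat and lean array of week 7, with a marker shape for each replicate number and a bar at each line's mean. The fat arrays lie above the lean arrays for FSHB and below them for TSHB, and the lines overlap for PRL, POMC and CGA, while GH has 2 lean arrays.

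The day printed in the first line of each array file was shared by fat replicates 3 and 4 and lean replicates 3 and 4, while fat replicate 1 and lean replicate 1 had other days. What was done on that day is not stated. Within the shared day the difference was 1.85 for FSHB (unadjusted p = 0.0158) and -0.69 for TSHB (unadjusted p = 0.173). With the day as a block in the limma fit FSHB differed by 2.10 (adjusted p = 0.115) and TSHB by -0.69 (adjusted p = 0.35).

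The receptors that carry signals to these cells numbered 13 measured genes, 7 higher and 6 lower in fat birds, with a median difference of 0.04 against 0.04 over all 5742 genes. AVPR1B, the vasotocin receptor of corticotropes, had log2 ratios of 0.36, -0.17 and -1.63 in fat birds, against 0.37, 0.11 and 0.79 in lean birds, with fat replicate 4 far below the other 5 arrays. Its difference was -0.90 (adjusted p = 0.199 in limma's test), or -1.06 without lean replicate 3. LEPR, the leptin receptor, had fat values of -0.16, -0.90 and -0.28 below lean values of -0.01, -0.09 and 0.10, a difference of -0.44 with an unadjusted p of 0.121, while a second LEPR probe differed by 0.21 with overlap, or 0.04 without lean replicate 3. SSTR2, a receptor for the inhibitory peptide somatostatin, differed by 0.37, by 0.13 without lean replicate 3, and by -0.41 on a second probe. GHRHR, the receptor for growth hormone-releasing hormone, differed by 0.33, and by 0.01 without that array.

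Of the transcription factors that shape pituitary cell types, 7 were measured, 1 higher and 6 lower in fat birds. Their median difference was -0.28, and -0.19 without lean replicate 3. POU1F1, needed for somatotropes, lactotropes and thyrotropes, had log2 ratios of -0.26, -0.02 and -0.34 in fat birds, against 0.22, 0.38 and -0.03 in lean birds. Its lines overlapped narrowly, and it differed by -0.40 (SE 0.12, unadjusted p = 0.00313, adjusted p = 0.159 in limma's test). Left without lean replicate 3, POU1F1 differed by -0.31. EGR1, which drives the LHB gene, differed by -0.72 and NEUROD1, a corticotrope factor, by -0.46. Both moved toward 0 without lean replicate 3, to -0.37 and -0.19. A second EGR1 probe, not measured on lean replicate 4, differed by -0.76, or by -0.65 without lean replicate 3. TBX19, the factor that switches on POMC, was the one member with a positive difference, at 0.21, or 0.15 without lean replicate 3, and its fat arrays all lay above its lean arrays.

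Of the genes for prohormone processing and granule cargo, 10 were measured, with 2 higher and 8 lower and a median of -0.13, or -0.07 without lean replicate 3. CPE, a carboxypeptidase that trims hormone precursors in secretory granules, had log2 ratios of 0.22, 0.57 and 0.51 in fat birds, against 0.85, 0.84 and 0.67 in lean birds. The lines did not overlap, and the difference was -0.35 (unadjusted p = 0.0403) with lean replicate 3 and -0.33 (unadjusted p = 0.0898) without it. The other CPE probes differed by -0.37, -0.26 and -0.22, and the lines overlapped on the last of these only, which stood at 0.32 without lean replicate 3. CHGB, a granin that packs hormone granules, differed by -0.66 and overlapped, with fat values of 0.09, 0.47 and -0.60 and lean values of 0.82, 0.91 and 0.21.

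The genes with the smallest unadjusted p among those whose lines did not overlap were taken 12 in each direction. All 24 kept an unadjusted p under 0.05 in the limma fit when any of the 6 arrays was left out, with 0.0204 as the highest. With the arrays scaled to a common spread 23 of them did. These genes were picked for their small p, so the figures describe them and are no further test. The adjusted p-values ran from 0.113 to 0.132.

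The 12 genes higher in fat birds had differences from 0.36 to 0.88, and from 0.27 to 1.06 without lean replicate 3. MYLIP, a ubiquitin ligase that marks the low-density lipoprotein receptor for breakdown in mammals, had the smallest p of them. Its log2 ratios were 0.13, 0.01 and 0.37 in fat birds, against -0.23, -0.42 and -0.33 in lean birds, a difference of 0.50 (SE 0.11, adjusted p = 0.113 in limma's test), but a second MYLIP probe differed by 0.05 (unadjusted p = 0.684). USP45, a deubiquitinating enzyme, had 0.10, -0.04 and 0.07 in fat birds, against -0.39, -0.67 and -0.38 in lean birds, a difference of 0.52. RNF126, another ubiquitin ligase, differed by 0.61, and APEH, a peptidase that removes acylated amino acids, by 0.39.

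RRAGD, a small GTPase that reports amino acids to the growth kinase mTOR, had log2 ratios of 0.02, -0.11 and 0.10 in fat birds, against -0.27, -0.44 and -0.36 in lean birds, a tight separation with a difference of 0.36 (SE 0.08). ABCA8, a membrane transporter of lipids, differed by 0.59. BHLHE40, a repressor tied to the circadian clock, had 0.04, 0.98 and 0.09 in fat birds, against -0.44, -0.41 and -0.21 in lean birds, so that fat replicate 3 lay far above the rest. Its difference was 0.72. BOK, a relative of BCL2 that promotes cell death, differed by 0.61, and by 0.40 without lean replicate 3.

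GPC3, a heparan sulfate proteoglycan of the cell surface, and SCCPDH had the greatest differences of the 12. GPC3 had log2 ratios of 0.40, 1.13 and 1.11 in fat birds, against 0.25, 0.36 and -0.62 in lean birds, a difference of 0.88 (SE 0.24), or 1.06 without lean replicate 3. SCCPDH had 0.46, 0.99 and 0.83 in fat birds, against 0.19, -0.01 and -0.27 in lean birds, a difference of 0.79 (SE 0.18), or 0.80 without that array. U2SURP, a spliceosome protein, differed by 0.65 and THAP8, a zinc finger protein, by 0.41, or by 0.34 and 0.27 without lean replicate 3, and for both lean replicate 3 was the lowest array, at -1.24 and -0.79. Other probes of the same genes did not always bear these out: further probes for GPC3, THAP8, RRAGD and BHLHE40 differed by -0.49, -0.34, -0.29 and -0.13. The second APEH probe differed by 0.14, or -0.14 without lean replicate 3, and the second BOK probe by 0.14.

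The 12 genes lower in fat birds had differences from -0.76 to -0.45, and from -0.66 to -0.31 without lean replicate 3. JUN, a subunit of the AP-1 transcription factor that responds to stimulation within minutes, had log2 ratios of 0.13, -0.03 and 0.15 in fat birds, against 0.62, 1.29 and 0.44 in lean birds. Every lean array lay above every fat array, with lean replicate 3 far above the others. The difference was -0.70 (SE 0.14, unadjusted p = 4.31e-05, adjusted p = 0.113 in limma's test), and -0.45 without that array. A second JUN probe differed by -0.58 (unadjusted p = 0.0043), with lean replicate 4 just below the highest fat array, and by -0.31 without lean replicate 3.

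DPYSL2, a partner of tubulin in growing neurites, had log2 ratios of 0.23, 0.19 and -0.11 in fat birds, against 0.80, 0.76 and 0.41 in lean birds, a difference of -0.55 (SE 0.14). Its other probes differed by -0.60 and -0.39, and on all 3 probes the lines did not overlap, with -0.50, -0.49 and -0.26 on the 3 probes without lean replicate 3. AP3S2, a small chain of an adaptor complex for traffic to lysosomes, likewise had non-overlapping lines on 3 probes, with differences of -0.66, -0.47 and -0.42, or -0.42, -0.29 and -0.25 without lean replicate 3. MAPRE1, which binds growing microtubule ends, differed by -0.60 on its brightest probe and by -0.38 and -0.19 on its others, on which the lines overlapped. These MAPRE1 probes stood at -0.36, -0.14 and 0.10 without lean replicate 3.

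ATP9A, a lipid flippase of endosomes, had even values within each line. Its log2 ratios were -0.16, -0.06 and -0.16 in fat birds, against 0.26, 0.37 and 0.34 in lean birds, a difference of -0.45 that stayed at -0.43 without lean replicate 3. CTSA, a protective protease of lysosomes, had -0.63, -0.17 and -0.32 in fat birds, against 0.04, 0.72 and 0.21 in lean birds, a difference of -0.70. Further CTSA probes differed by -0.12 and by -0.29, the latter with overlap. These probes stood at -0.09 and -0.26 without lean replicate 3. HNRNPD, which binds AU-rich messages and sets their decay, had -0.27, 0.03 and -0.11 in fat birds, against 0.39, 1.02 and 0.52 in lean birds, a difference of -0.76. UFD1L, which helps extract ubiquitin-marked proteins, differed by -0.67, PGM2L1, which makes a sugar bisphosphate cofactor, by -0.64, LRRC73 by -0.72 and TMEM59 by -0.52. UFD1L stood at -0.51, PGM2L1 at -0.38, LRRC73 at -0.46 and TMEM59 at -0.31 without lean replicate 3.

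**Figure D3:**
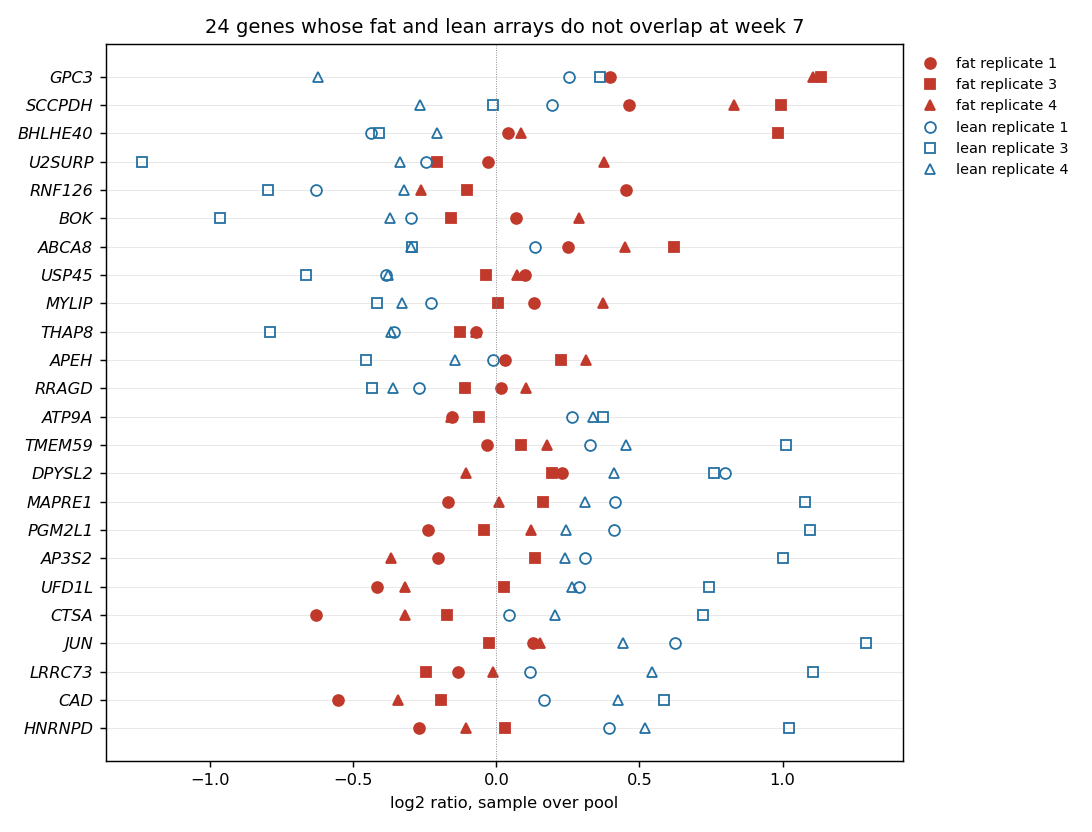
Log2 ratio of sample over pool, on the horizontal axis, for the 24 genes with the smallest unadjusted p among those whose fat arrays (filled) and lean arrays (open) of week 7 do not overlap, ordered by difference, with a marker shape for each replicate number. The open square, lean replicate 3, lies outermost for many of the genes, for example at 1.29 for JUN and -1.24 for U2SURP.

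The next question was whether gene groups were shifted as a whole, and 26 lists of pathways and cell type markers were described by counts and medians. Of all 5742 genes, 3248 were higher and 2494 lower in fat birds, with a median of 0.04. The cytosolic ribosomal proteins, which build the ribosome, stood low both with and without lean replicate 3. Of 44 measured, 9 were higher and 35 lower in fat birds, with a median of -0.18, or -0.17 without that array (5 higher and 39 lower). Their mean log2 ratio was 0.07, 0.11 and 0.05 on the fat arrays, against 0.25, 0.32 and 0.22 on the lean arrays, with no overlap. The list mean also did not overlap for Hedgehog, Notch and Wnt signalling, lower in fat birds, and for the adipocyte list, higher in fat birds. For Hedgehog, Notch and Wnt signalling the gap was narrow, with 0.155 on the highest fat array and 0.158 on the lowest lean array. Of its 14 measured genes 4 were higher and 10 lower. Its median was -0.12, or -0.04 without lean replicate 3, and 0.03 with the arrays scaled to a common spread. With the arrays scaled to a common spread the median of the ribosomal proteins was -0.09, and at weeks 1, 3 and 5 together it was 0.02.

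In the same list 13 of 43 genes measured on all 6 arrays had every fat array below every lean array, beside 6.96% of all genes. RPL17 had log2 ratios of 0.04, 0.04 and -0.01 in fat birds, against 0.27, 1.01 and 0.55 in lean birds, a difference of -0.59 (SE 0.15, adjusted p = 0.129 in limma's test), or -0.39 without lean replicate 3. RPL31 had 0.03, 0.26 and 0.36 in fat birds, against 0.63, 0.99 and 0.75 in lean birds, a difference of -0.57, or -0.47 without it. RPL7A stood at 0.24, with all fat arrays above all lean arrays, but a second RPL7A probe stood at -0.22. These RPL7A values were 0.15 and -0.08 without lean replicate 3.

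The genes of interferon response and antigen presentation had 3 of 17 higher and 14 lower, with a median of -0.25, or -0.09 without lean replicate 3. TAPBP, which loads peptides on class I molecules, had log2 ratios of -0.29, -0.33 and -0.47 in fat birds, against -0.14, 1.18 and 0.49 in lean birds, a difference of -0.87, or -0.54 without lean replicate 3. The other TAPBP probes differed by -0.64 and 0.12, both with overlap, or by -0.29 and 0.15 without that array. BF1, a class I gene, had 0.21, -0.23 and -0.25 in fat birds, against 0.15, 1.02 and 1.22 in lean birds, a difference of -0.89, with the lines overlapping through replicate 1. Other BF1 probes differed by -0.87 and -1.24, both with overlap, or by -0.87 and -1.22 without lean replicate 3. At weeks 1, 3 and 5 together the difference was 0.54 on the brightest BF1 probe, and 0.70 and 0.64 on the others. That of CD74, the class II chaperone, was 0.50 at those ages, beside -0.25 at week 7, or -0.12 without lean replicate 3. Class I genes are close relatives, and a cDNA probe can bind more than 1 of them.

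Among the pathways apart from these and the transcription factors the medians lay between -0.13 and 0.08, and single members stood out in both directions. PSMB5, a catalytic subunit of the proteasome, differed by -0.73 with non-overlapping lines, or -0.44 without lean replicate 3, in a list of 12 higher and 18 lower genes. CCND1, the cyclin that opens the cell cycle, had log2 ratios of 0.03, 0.15 and -0.05 in fat birds, against 0.47, 0.82 and 0.60 in lean birds, a difference of -0.59, or -0.49 without lean replicate 3. Of the 19 cell cycle genes 13 were higher and 6 lower, or 11 and 8 without lean replicate 3. The 3 with an unadjusted p under 0.05 were all lower, beside 8.19% of all genes lower at that threshold. They were CCND1, GINS2, a part of the replication helicase, at -0.38, and STMN1, which takes microtubules apart, at -0.47. STMN1 was not measured on all 6 arrays. GINS2 stood at -0.29 and STMN1 at -0.36 without lean replicate 3, and 1 of the 19 genes then had an unadjusted p under 0.05. In glycolysis, LDHA, which makes lactate, differed by 0.30 and HK1, which adds phosphate to glucose, by -0.30, both with non-overlapping lines and at 0.30 and -0.32 without lean replicate 3. The other HK1 probes differed by -0.41 and -0.39 with overlap, or by -0.15 and -0.04 without that array. A second LDHA probe differed by 0.15 with overlap, or by 0.47 without lean replicate 3. Of 36 genes of fatty acid and cholesterol metabolism 22 were higher, with a median of 0.08, and without lean replicate 3 that was 15 and -0.03. The medians of glycolysis and the clock were both -0.10 with that array and 0.02 without it. Of the 36 oxidative phosphorylation genes 17 were higher and 19 lower.

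**Figure D4:**
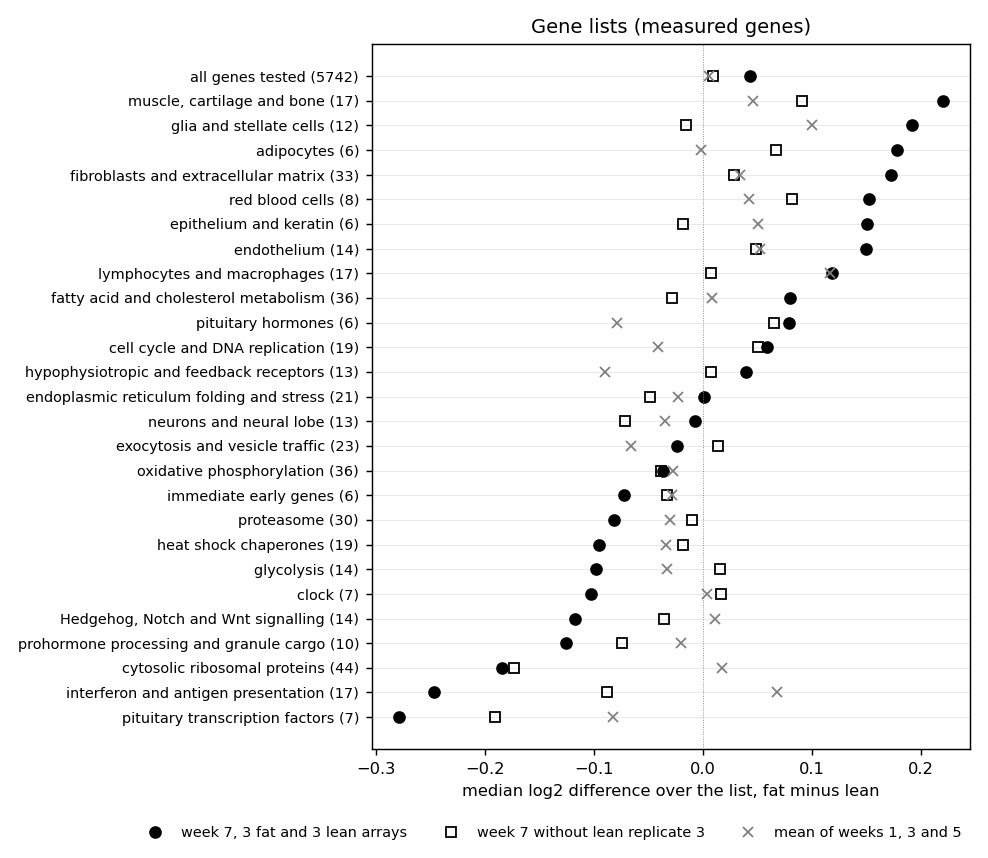
Median log2 difference, fat minus lean, over the measured genes of each list, on the horizontal axis, with the number of measured genes in brackets. Filled circles are the 6 arrays of week 7, open squares the same without lean replicate 3 and crosses the mean of weeks 1, 3 and 5, and the ribosomal proteins lie at -0.18, -0.17 and 0.02.

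Markers of other cell types were examined beside these, since dissected pituitaries can carry neighbouring tissue. Muscle, cartilage and bone markers had 15 of 17 higher in fat birds with a median of 0.22, fibroblast and matrix markers 20 of 33 with 0.17, glial and stellate cell markers 8 of 12 with 0.19, endothelial markers 8 of 14 with 0.15 and lymphocyte and macrophage markers 13 of 17 with 0.12. Of all 5742 genes 3248 were higher, with a median of 0.04, so the endothelial and fibroblast counts lay near the share of all genes. Without lean replicate 3 the medians of these lists were 0.09, 0.03, -0.02, 0.05 and 0.01, and that of all genes was 0.01. The mean of the muscle, cartilage and bone markers was -0.12, -0.30 and -0.20 on the fat arrays, against -0.25, -0.65 and -0.31 on the lean arrays, so the lines overlapped and lean replicate 3 was lowest. Red cell markers had 6 of 8 higher, with the lines overlapping. The neural lobe hormone genes were not measured here. The part of other tissues in the differences above was not tested.

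Some markers with non-overlapping lines kept the larger part of their difference without lean replicate 3. SOX10, a factor of glia, had log2 ratios of -0.43, -0.25 and -0.12 in fat birds, against 0.15, 0.68 and 0.43 in lean birds, a difference of -0.69, or -0.56 without it. MOG, a protein of myelin, differed by -0.52, or -0.49 without it, and NEFL, a neurofilament chain, by -0.62, or -0.47, all with non-overlapping lines. On a second SOX10 probe, with overlap, the difference was -0.45, or -0.29 without that array. In the other direction, NRXN3, a protein of the synapse, differed by 0.34 (unadjusted p = 0.00825), or 0.31 without that array, and STMN2, a tubulin-binding protein of neurons, by 0.34 (unadjusted p = 0.0715), or 0.27, both with non-overlapping lines. The neuron list had 6 genes higher and 7 lower. The glial and stellate cell list had 8 higher and 4 lower, or 5 and 7 without lean replicate 3. Its members S100B and GLUL stood at 0.49 and 0.45 with overlap, or at 0.17 and 0.42 without that array. The adipocyte list had 6 of 6 measured genes higher, with a median of 0.18, or 4 of 6 and 0.07 without lean replicate 3. Its member DGAT2 stood at 0.20 with overlap, or -0.07 without that array. On a second DGAT2 probe every fat array lay below every lean array, with -0.32, or -0.42 without lean replicate 3. ADIPOQ, the fat cell hormone adiponectin, had 0.12, 0.35 and 0.33 in fat birds, against 0.03, -0.00 and -0.09 in lean birds, a difference of 0.29 (unadjusted p = 0.0181), or 0.30 without it. In the endothelium list EGFL7 and ERG stood at 0.35 and 0.33, and ENG and PECAM1 at -0.56 and -0.55, PECAM1 with overlap. Other ENG probes ran from -0.32 to 0.30. EGFL7 stood at 0.22, ERG at 0.19, ENG at -0.33 and PECAM1 at -0.42 without lean replicate 3.

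The last question was whether the line difference at week 7 was the one seen at earlier ages. Week 7 shares no array with weeks 1, 3 and 5, but all arrays share the pool. Both tests also use the same estimate of each probe's spread. A probe with a small estimate tends to a small p in both, so the shares by unadjusted p below are not an independent test. Probes that passed at the earlier ages may also differ in spread from all probes. The shares by sign and by overlap are therefore descriptions too. Over weeks 1, 3 and 5 together, 79 probes (0.537% of 14705) passed an adjusted p of 0.05 in limma's test of the line difference. At week 7, 58 of these 79 had the same sign (73.4%, against 61.2% of all probes), 21 also had an unadjusted p under 0.05 (26.6% against 11.8%), and 18 had non-overlapping lines in that direction (22.8% against 8.12%).

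Of 10 genes picked because they differed over all ages, week 7 included, the week 7 values were not alike. CAD, the enzyme that starts pyrimidine synthesis, had log2 ratios of -0.55, -0.19 and -0.34 in fat birds, against 0.17, 0.58 and 0.42 in lean birds. Its week 7 difference was -0.76, or -0.66 without lean replicate 3, beside -0.62, -0.63 and -0.53 at weeks 1, 3 and 5. The other CAD probes differed by -0.14, -0.04 and 0.26, the last of which stood at -0.34 without lean replicate 3. Over weeks 1, 3 and 5 together these other probes differed by -0.16, 0.04 and 0.01, beside -0.59 on the brightest. CD69L, named after a lymphocyte receptor, had -0.26, 0.31 and 0.43 in fat birds, against 0.61, 1.61 and 0.80 in lean birds, a difference of -0.84, or -0.54 without lean replicate 3. SUFU, which restrains Hedgehog signalling, had -0.30, 0.22 and 0.51 in fat birds, against 0.33, 1.30 and 0.58 in lean birds, so the lines overlapped. Its difference was -0.59, or -0.31 without lean replicate 3, beside -0.85, -1.02 and -0.96 at weeks 1, 3 and 5.

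EXOG, a nuclease of mitochondria, had log2 ratios of -0.20, -0.24 and -0.43 in fat birds, against 0.19, 0.28 and 0.18 in lean birds, a difference of -0.50 that was -0.47 without lean replicate 3. A second EXOG probe differed by -0.0037 at week 7 and by 0.25 over weeks 1, 3 and 5. SLC35B3, a carrier of the sulfate donor into the Golgi, had 0.42, 0.29 and 0.50 in fat birds, against 0.11, 0.16 and 0.01 in lean birds, a difference of 0.31. STAU2, a carrier of messages in neurons, differed by -0.31 with lines that did not overlap, beside -0.75, -0.52 and -0.47 at weeks 1, 3 and 5. CPQ, a secreted carboxypeptidase, differed by 0.45 with overlap and RNF126 by 0.61 without. TSPAN7 and LGI1, both genes of neurons, had -0.11 and -0.14 at week 7 (LGI1 -0.32 without lean replicate 3), beside values from -0.56 to -0.31 at the earlier ages, and single arrays turned their sign. A second TSPAN7 probe had -0.45, or -0.15 without lean replicate 3.

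**Figure D5:**
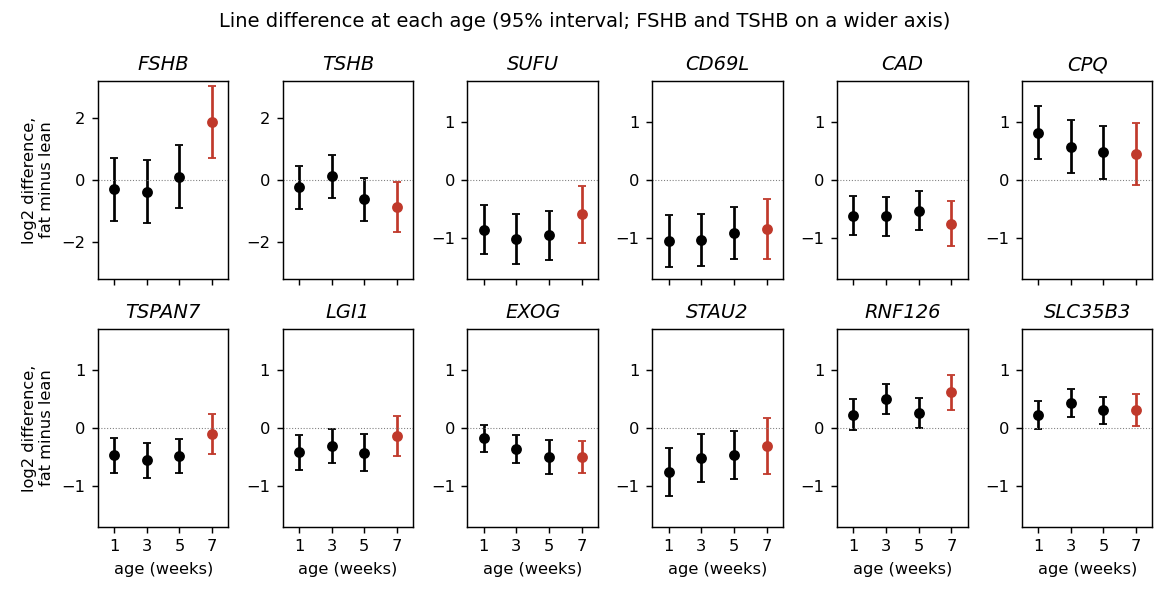
Log2 difference, fat minus lean, on the vertical axis against age in weeks for FSHB, TSHB and the 10 genes picked over all ages, with 95% intervals from the limma fit and week 7 in red. FSHB lies at -0.31, -0.38, 0.11 and 1.86, while the brightest CAD probe lies between -0.76 and -0.53 at every age.

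The week 7 difference was also set against the mean difference of weeks 1, 3 and 5 in the same limma fit. No probe passed the adjusted threshold (0% of 14705), and 1575 had an unadjusted p under 0.05 (10.7%), or 566 without lean replicate 3 (3.85%). EGFL7, a factor that endothelial cells secrete, had log2 ratios of 0.10, 0.17 and 0.15 in fat birds, against -0.01, -0.47 and -0.14 in lean birds at week 7. Its week 7 difference exceeded the earlier mean by 0.41 (SE 0.10, adjusted p = 0.331 in limma's test), whereas a second EGFL7 probe had a week 7 difference of -0.41, or -0.25 without lean replicate 3. CDK2AP1, an inhibitor of a cell cycle kinase, did so by 0.83 and RRAGD by 0.33, but on the other RRAGD probe this was -0.60 (unadjusted p = 0.0405).

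In the other direction, TIMM8A, a mitochondrial import chaperone, stood at -0.28 at week 7, beside 0.35, 0.38 and 0.29 at weeks 1, 3 and 5, a change of sign with a difference between them of -0.62 (SE 0.16, adjusted p = 0.331 in limma's test). It had log2 ratios of -0.01, -0.08 and -0.27 in fat birds, against -0.18, 0.49 and 0.19 in lean birds at week 7, so the lines overlapped, and without lean replicate 3 the week 7 value was -0.12. A second TIMM8A probe showed no change of sign, with -0.32 at week 7 beside -0.13, -0.11 and -0.14 at weeks 1, 3 and 5. YY2, a zinc finger factor, was at -0.43 at week 7, with fat arrays all below lean arrays, and differed from the earlier mean by -0.59. HDAC4, a histone deacetylase, was at -0.66 from 3 fat arrays and lean replicates 1 and 3, and at -0.31 without lean replicate 3.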

How the data were processed

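The members and gene lists were chosen with earlier results of these data known. Per the file headers, TIGR Spotfinder 2.2.4 wrote 1 file per array. The deposited files hold intensity and local background of both dyes without normalization, quality scores as a fraction, and other measures (spot area and marks). The deposited series table holds log2 ratios, whose normalization by the authors is not given in the sources used here. It served as an alternative, and correlated at 0.614 to 0.651 with the 6 arrays.

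Intensity per area was corrected with normexp (offset 50), spots with bad marks were left out, and log2 ratios were loess-normalized per grid block. Background had already been taken off in the fat replicate 2 file. Probes needed 22 usable arrays of 30 and at least 2 per group. A mean per line and age was fitted to 30 arrays (22 residual degrees of freedom) with limma 3.58.1 in R 4.3.3 (statmod 1.5.0, matplotlib 3.10.9), with two-sided moderated tests and Benjamini-Hochberg adjustment over 14705 probes at 0.05, after a test on simulated data. The number of arrays limits the precision.

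Genes named are up to 12 per direction without overlap, ranked by p where none passed; the hormones; 3 per direction for the difference from other ages; up to 4 per list; and 10 genes of all ages. GUCY1A3, CHP1, TBX19, RPL7A, CD74, STMN2 and the further probes of named genes were chosen after their values were seen. Symbols come from the platform's 2007 table, updated through a RefSeq table of another build, so no positions are given. No sequences were used. Same-numbered fat and lean arrays deviated together at 0.264, 0.276 and 0.055, and by these deviations most arrays matched their own number best. The labels state no pairing, and the numbers were not taken as pairs in the main fit. As an alternative the number was used as a block, with which 44 probes passed the adjusted threshold.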

Additional observations from a re-analysis of the deposited data

How the results depend on the processing

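Of 27 alternatives 18 left the count of probes past the adjusted threshold at 0, and the direction of FSHB, TSHB and all 24 genes was kept in each that gave a value. The count was 3 with loess over the whole array, 93 with the shared scan kept as fat replicate 2 and 1 when the day printed in the array files was blocked. Leaving out arrays gave 0 to 337. Probes at an unadjusted p under 0.05 numbered 685 with scaling between arrays, 851 on the 6 arrays alone, 1204 with the shared scan in both lines, 3827 and 1031 with it as fat or lean replicate 2, and 1152 with array weights. They numbered 1034 of 5742 (18.0%) for brightest probes alone and 689 of 10489 (6.57%) from the authors' deposited table. Leaving out arrays gave 730 to 4073, and leaving out lean replicate 3 and fat replicate 4 together, a choice made after seeing the data, gave 686. The count for week 7 against earlier ages was 0 to 28 without single arrays or numbers, and 0 in the other alternatives. Among list genes 3 passed with the scan as fat replicate 2, beside 93 of all 14705 probes. Without arrays 0 to 16 list genes passed, beside 0 to 337 of all probes. Among the 10 all-age genes these were 4 and 0 to 2, but those genes were picked with week 7 included. These counts describe the settings and are no result about the lists. The cause of these shifts was not tested.

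With the replicate number as a block, 44 of 14705 probes passed, 2 of them list genes and 1 an all-age gene. With the block on the 6 arrays alone 1 passed, FSHB (adjusted p = 0.025 in limma's test), with 1568 at an unadjusted p under 0.05. FSHB differed between same-numbered arrays by 1.89, 1.58 and 2.13. By correlation of their deviations, 5 of the 6 arrays matched their own number best. By correlation of the ratios themselves the match was poorer. Fat replicate 3 correlated at 0.677 with lean replicate 1 and at 0.619 with lean replicate 3. Lean replicate 4 correlated at 0.631 with fat replicate 3 and at 0.586 with fat replicate 4.

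Reversed values were GH -0.10 with the scan as fat replicate 2 and -0.38 to 0.55 without arrays; PRL 0.0746 without lean replicate 3 and fat replicate 4; POMC -0.0502 scaled, -0.0039 with the scan as lean replicate 2, -0.0064 with array weights, -0.031 in the authors' deposited table, -0.128 without lean replicate 3 and fat replicate 4, and -0.0381 to 0.167 without arrays; CGA -0.0653 with whole-array loess, -0.0252 with the scan as lean replicate 2 and -0.32 to 0.45 without arrays; TSPAN7 -0.268 to 0.0367 and LGI1 -0.319 to 0.0613 without arrays; and STAU2 0.0049 with the scan as lean replicate 2.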

Other observations

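The scan that both replicate 2 files hold belongs to no line in the comparison. In it, as read from the file labelled fat, FSHB had a log2 ratio of 0.70 and TSHB of 0.83. The file labelled lean gave 0.70 and 0.83 as well.

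Some probes that passed for the line difference over weeks 1, 3 and 5 had the opposite sign at week 7. GUCY1A3, a chain of the receptor for nitric oxide, had 0.69 over the earlier ages and -0.43 at week 7 (-0.26 without lean replicate 3), and a probe for CHP1, a calcium-binding protein, had -0.36 and 0.22. The brightest CHP1 probe showed no change of sign, with -0.14 and -0.06, and another had -0.03 and 0.17. None of these week 7 values had an unadjusted p under 0.05, and both genes were chosen after their values were seen.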
